A study of Mus musculus with 11 samples.

Results

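The 6 interferon-inducible genes studied here, the p200 genes Ifi206, Ifi208 and Mndal, the GTPase genes Tgtp2 and Gbp6, and the ubiquitin-like modifier gene Isg15, were followed in cardiac fibroblasts of mice that lack Pw1 and of control mice. They were taken by gene symbol from a table of which 1293 complete gene rows were held, 1141 of them with a count in every library, and all 6 were among the 1141. Poly(A) RNA was sequenced from fibroblasts of infarcted left ventricles 3 days after myocardial infarction, in 5 Pw1 CKO libraries and 6 control libraries. Pw1, an imprinted zinc-finger gene with the symbol Peg3, is deleted in the CKO by a Cre recombinase driven by Pdgfra, a gene active in fibroblasts and other mesenchymal cells. CKO 1 to 3 are labelled Pdgfra-Cre;Pw1fl/fl and controls 1 to 3 wild type, Pw1fl/+ or Pw1fl/fl (set 1). The other CKO libraries are labelled PDGFRa Cre+;Pw1 fl/fl and controls 4 to 6 Pw1 fl/fl (set 2). The columns CKO 9 and CKO 10, so named in the table, can be tied to the CKO group but to no single sample, and were placed in set 2 by elimination. All groups share the infarct, and strain, age, sex and whether the controls carry Cre are not given in the sources used here. Nothing says that the libraries came from separate animals, so p-values measure only the spread between these libraries.

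Interferons bound to their receptors activate STAT and IRF transcription factors, which act at short promoter elements of many genes. The p200 genes form a cluster on mouse chromosome 1 and encode proteins that bind DNA through a HIN domain, among them the cytosolic DNA sensor Aim2. Immunity-related GTPases such as Tgtp2 and guanylate-binding proteins such as Gbp6 act on the membranes around intracellular pathogens, and Isg15 is attached to other proteins by enzymes that are themselves interferon-induced. Isg15 is widely used as a readout of type I interferon.

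The promoter stretches with the interferon-stimulated response element are shown because they place the members side by side as interferon genes while their changes differed. Promoter windows ran from 250 bases before to 50 bases after the annotated start, were taken from RefSeq (GRCm38.p6), and were available for 5 of the 6 members, with 2 starts for Mndal. The core of the element, searched on both strands as GAAANNGAAA, is in capitals, with 15 bases on each side, 5′ to 3′ on the strand of the gene.
Ifi206 (chr1:173491334-173491373, minus strand): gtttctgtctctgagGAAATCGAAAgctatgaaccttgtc
Ifi208 (chr1:173673592-173673631, plus strand): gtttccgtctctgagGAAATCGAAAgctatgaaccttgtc
Mndal (chr1:173880199-173880238, minus strand): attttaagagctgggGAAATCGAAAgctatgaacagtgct
Tgtp2 (chr11:49064258-49064297, minus strand): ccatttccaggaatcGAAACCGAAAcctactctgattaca
Isg15 (chr4:156200860-156200911, minus strand): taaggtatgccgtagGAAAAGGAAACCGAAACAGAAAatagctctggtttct

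All 5 members with a window held the core, in 6 of 6 windows, against 1131 of 32851 promoter windows of the mouse (3.44%). Isg15 had 3 overlapping matches between positions -78 and -57 from the start. The core began at -40 in Ifi206, -58 in Ifi208, -36 in Mndal and -70 in Tgtp2, and the window of the other Mndal start had a match on the opposite strand that began at -54. Positions count from the start used for each window, which for Ifi208 and Mndal lies inside the gene span given below. The Mndal matches themselves lie inside that span. The gamma-activated site, searched on both strands as TTCNNNGAA, lay in 1 member, Tgtp2, from -81 to -73, beside the core without overlapping it, against 8.3% of all windows. The Ifi206 and Ifi208 windows were almost the same sequence: 279 of 282 aligned columns were identical (98.9%), with 2 mismatches and 1 gap. The 20-base stretch gGAAATCGAAAgctatgaac stood in 5 of the 32851 windows, those of Ifi203, Ifi206, Ifi208, Ifi213 and Mndal, all p200 genes of chromosome 1. A match is a description of letters and does not show binding.

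**Figure D1:**
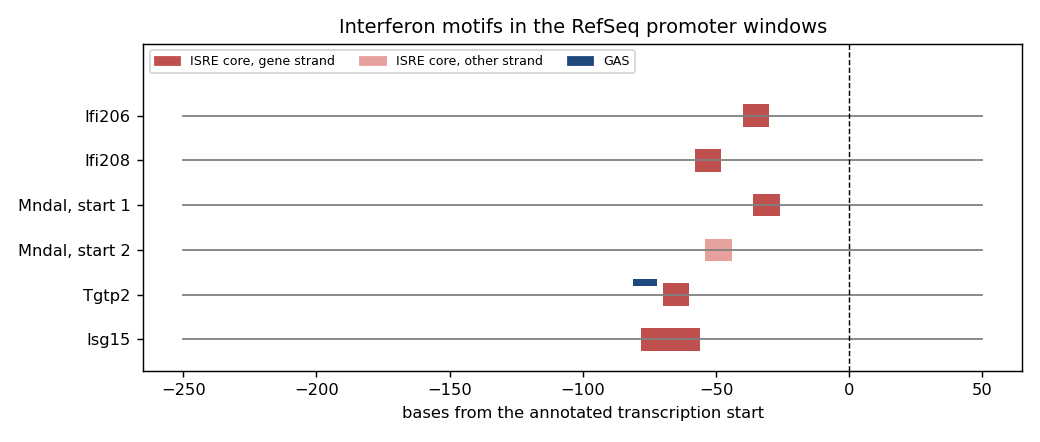
Positions of interferon motifs in the RefSeq promoter windows of 5 members (Gbp6 is not shown). The x axis gives bases from the annotated transcription start (dashed line) and each grey line is 1 window. Red bars are matches of the response element core on the strand of the gene, the pale bar is the match on the other strand, and the blue bar is the gamma-activated site of Tgtp2. Every core match lies between -78 and -27.

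Recovered library totals were 20344882 to 20589530 reads in CKO 1 to 3 and 20352901 to 20639777 in the controls. The totals of CKO 9 and CKO 10 were estimated at 18411858 and 18680099. Reads on the genes held were 2.89% to 2.91% of the total in CKO 1 to 3 and 3% to 3.09% in the controls. For CKO 9 and CKO 10 this share was set to the mean of CKO 1 to 3 and is no measurement. Of 814 genes tested with edgeR's quasi-likelihood test over all 11 libraries, 573 (70.4%) differed between the groups at a Benjamini-Hochberg adjusted p under 0.05, 279 (34.3%) higher and 294 (36.1%) lower in CKO fibroblasts, with a median log2 change of -0.06. Peg3 and the 10 listed fibroblast markers, Pdgfra and Col1a1 among them, were not analysed here, so neither the deletion nor the cell label was checked. Mean transcript length over a whole library was 1540 to 1675 nt in CKO 1 to 3 and 2167 to 2294 nt in the controls, so each member is also given with the length trend of the libraries removed. Levels are TMM-scaled CPM: counts over the library total, with that total multiplied by a TMM factor estimated from the genes held. They are therefore not plain shares of the whole library. Changes are log2 of CKO over control. Over the same 9 libraries, the change of every member was higher with TMM than with library totals alone. Mndal was at 0.40 with TMM and 0.0705 with totals, and Gbp6 at 0.0447 and -0.29. In these bulk libraries fewer expressing cells and less RNA per cell cannot be told apart.

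Ifi206 rose 8.53-fold in CKO fibroblasts, while Ifi208, whose promoter window is nearly the same, showed no difference that passed the test and Mndal was 1.30-fold higher with TMM scaling but lower, and not called, on the TPM scale. With TMM, Tgtp2, Gbp6 and Isg15 did not pass the test. Of the 6 members, 2 were therefore called, both higher and both p200 genes, with a median change over the 6 of 0.16, over the 3 p200 members of 0.38 and over the other 3 of -0.03. The 2 of 6 stand beside 70.4% of all tested genes that were called, and the same 2 members had CKO and control libraries that did not overlap, against 444 of 814 genes (54.5%).

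Ifi206 (gene ID 102639543, GRCm38.p6 chromosome 1, 173468485 to 173491318) is a p200 gene at the Aim2 end of the cluster. It had 11.5, 13.0 and 14.1 CPM in CKO 1 to 3, 7.11 in CKO 9 and 5.61 in CKO 10, against 1.22, 0.726, 0.939, 2.13, 0.649 and 1.09 CPM in controls 1 to 6. The lowest CKO library was above the highest control, and CKO 1 to 3 were above CKO 9 and CKO 10. The mean was 10.2 ± 3.70 CPM in CKO fibroblasts (SD, n = 5) and 1.13 ± 0.537 CPM in control fibroblasts (SD, n = 6), a change of 3.09 (SE 0.34; edgeR adjusted p = 1.47e-05). The counts behind these values were 205, 250, 272, 102 and 83.7 estimated reads in CKO 1, 2, 3, 9 and 10, against 14.99 to 48.8 in the controls, so the control level is known with less precision than the CKO level. With the length trend removed it was called higher, at 3.47 by loess and 3.31 by robust loess. Of all tested genes, 98.2% had a lower change than Ifi206, and so did every one of the 201 tested genes of like transcript length (within 1.25-fold; median change -0.23). It was called higher in each of the alternatives tried, from 1.98 on the log2(TPM + 1) scale to 3.77 with TMM over 9 libraries. The lowest value depends on the constant added: the mean in the controls was 0.835 TPM, and the log2(TPM + 0.1) scale gave 2.87.

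**Figure D2:**
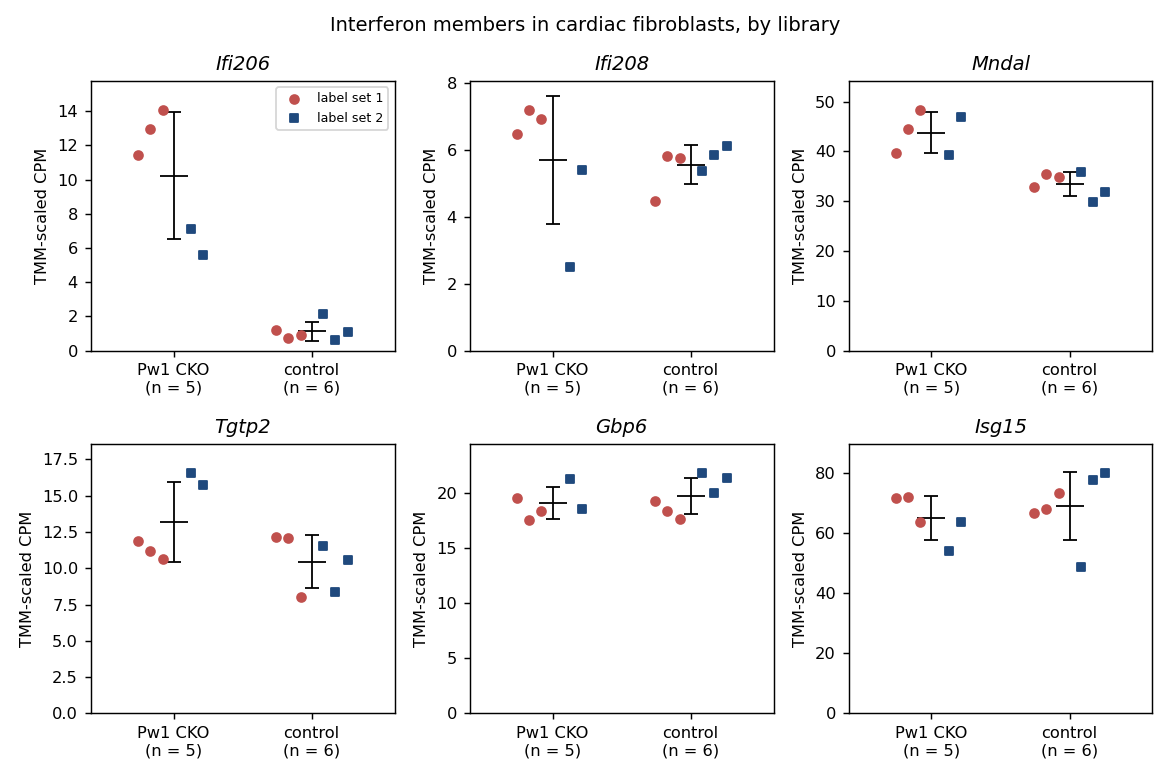
TMM-scaled CPM of the 6 members in each library, Pw1 CKO on the left and control on the right of each panel. Red circles are label set 1, blue squares label set 2, and the black bar is the mean with the SD (n = 5 and 6). The CKO libraries of Ifi206 (5.61 to 14.1 CPM) and Mndal (39.3 to 48.3 CPM) lie above all control libraries, and those of the other 4 members overlap them.

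Ifi208 (100033459, chromosome 1, 173673628 to 173698393) encodes a p200 protein with a pyrin domain and shares with Ifi206 nearly the whole promoter window. It had 6.49, 7.20 and 6.93 CPM in CKO 1 to 3, 2.51 in CKO 9 and 5.41 in CKO 10, against 4.46, 5.81, 5.76, 5.39, 5.84 and 6.11 CPM in controls 1 to 6. CKO 1 to 3 were above every control library, CKO 9 was below all of them and CKO 10 lay among them. The mean was 5.71 ± 1.91 CPM in CKO and 5.56 ± 0.586 CPM in control fibroblasts (SD, n = 5 and 6), with a change of -0.02 (SE 0.22; edgeR adjusted p = 0.947). CKO 9 and CKO 10 weigh on this value: with TMM over the 9 libraries that leave them out, where 66.8% of 802 genes were called, Ifi208 was called higher by 0.40 (SE 0.13; edgeR adjusted p = 0.0213), yet with library totals as the only scaling in the same libraries it was at 0.0690 (edgeR adjusted p = 0.657). With the length trend removed it was at 0.41 by loess (edgeR adjusted p = 0.0867) and 0.25 by robust loess (edgeR adjusted p = 0.274), and with length and GC content removed it was called higher, at 0.51 (edgeR adjusted p = 0.0194).

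The ratio of Ifi206 to Ifi208 within a library does not depend on how libraries are scaled. It was 1.77, 1.80 and 2.03 in CKO 1 to 3, 2.83 in CKO 9 and 1.04 in CKO 10, against 0.275, 0.125, 0.163, 0.395, 0.111 and 0.179 in controls 1 to 6. Ifi206 had more reads than Ifi208 in every CKO library and fewer in every control library. The mean ratio was 1.89 ± 0.644 in CKO and 0.208 ± 0.108 in control fibroblasts (SD, n = 5 and 6), a difference of 3.26 on the log2 scale, given with no test. The mean effective length was 3326 nt in CKO 1 to 3 and 3390 nt in the controls for Ifi206, and 3210 nt in CKO 1 to 3 and 3486 nt in the controls for Ifi208. The order of these means turned between the groups, but the ranges of the genes overlapped in each group. In CKO 1 to 3 they were 3283 to 3351 nt for Ifi206 and 3045 to 3332 nt for Ifi208. In the controls they were 3323 to 3496 nt and 3087 to 3692 nt. The lengths were computed from counts and rounded FPKM values, and the part of length in the ratio was not tested.

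Mndal (100040462, chromosome 1, 173857215 to 173880382), a nuclear p200 protein related to human MNDA, had the highest level per length of the 3 p200 members. It had 39.8, 44.5 and 48.3 CPM in CKO 1 to 3, 39.3 in CKO 9 and 46.9 in CKO 10, against 32.9, 35.4, 34.9, 35.9, 29.8 and 31.8 CPM in controls 1 to 6. All 5 CKO libraries were above all 6 controls. The mean was 43.8 ± 4.09 CPM in CKO and 33.4 ± 2.35 CPM in control fibroblasts (SD, n = 5 and 6), a change of 0.38 (SE 0.08; edgeR adjusted p = 0.00126). This call rests on the scaling. With library totals alone, where 67.0% of 802 genes were called and the median was -0.32, Mndal was at 0.0705 (edgeR adjusted p = 0.573), and on the log2(TPM + 1) scale, where 79.0% of 699 genes were called (78.4% with log2(TPM + 0.1)) and the median was -0.60, it was at -0.31 (limma adjusted p = 0.0596). Relative to those medians it was higher by 0.39 and by 0.29. With the length trend removed by loess it was called at 0.41, and with a robust loess it was at 0.16 (edgeR adjusted p = 0.0916). With length and GC content removed together it was called higher, at 0.99 (edgeR adjusted p = 2.29e-06).

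Tgtp2 (100039796, chromosome 11, 49057196 to 49064212), an immunity-related GTPase, had 11.9, 11.2 and 10.6 CPM in CKO 1 to 3, 16.6 in CKO 9 and 15.8 in CKO 10, against 12.2, 12.1, 8.03, 11.5, 8.40 and 10.6 CPM in controls 1 to 6. CKO 9 and CKO 10 were above all controls and CKO 1 to 3 were among them. The mean was 13.2 ± 2.76 CPM in CKO and 10.5 ± 1.84 CPM in control fibroblasts (SD, n = 5 and 6), with a change of 0.33 (SE 0.15; edgeR adjusted p = 0.0747). It passed the threshold without control 1, at 0.40, and without control 2, at 0.41. It was also called higher with the length trend removed by loess, at 0.52 (edgeR adjusted p = 0.0138), and with length and GC content removed, at 0.59 (edgeR adjusted p = 0.0152), but not with robust loess, at 0.33 (edgeR adjusted p = 0.0887). TMM over the 9 libraries without CKO 9 and CKO 10 put it at 0.0998 (edgeR adjusted p = 0.622). On the log2(TPM + 1) scale over the same 9 libraries it was called lower, at -0.59, which is 0.00846 above the median of all genes on that scale.

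Gbp6 (100702, chromosome 5, 105270702 to 105295871), a guanylate-binding protein, was among the steadiest members. It had 19.5, 17.5 and 18.4 CPM in CKO 1 to 3, 21.3 in CKO 9 and 18.6 in CKO 10, against 19.2, 18.3, 17.6, 21.8, 19.95 and 21.3 CPM in controls 1 to 6. The groups overlapped over nearly their whole range. The mean was 19.0 ± 1.43 CPM in CKO and 19.7 ± 1.64 CPM in control fibroblasts (SD, n = 5 and 6), with a change of -0.03 (SE 0.07; edgeR adjusted p = 0.689). Genes of like length fell more: the median of 176 such genes was -0.60, and 77.8% of them were below Gbp6. With the length trend removed it was called higher, at 0.71 by loess and at 0.57 by robust loess, but lower with library totals alone, at -0.29, and with log2(TPM + 1), at -0.60, the median of all genes on that scale, so no direction can be given for Gbp6.

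Isg15 (100038882, chromosome 4, 156199424 to 156200818), the ubiquitin-like modifier, had 71.4, 71.9 and 63.7 CPM in CKO 1 to 3, 54.0 in CKO 9 and 63.7 in CKO 10, against 66.5, 67.8, 73.3, 48.7, 77.4 and 80.0 CPM in controls 1 to 6. The groups overlapped, and control 4 was the lowest of all 11 libraries. The mean was 64.9 ± 7.30 CPM in CKO and 68.9 ± 11.2 CPM in control fibroblasts (SD, n = 5 and 6), with a change of -0.10 (SE 0.13; edgeR adjusted p = 0.488). Isg15 has a short transcript, 717 nt, and the 38 tested genes of like length had a median change of 1.45, with 24 called higher and 4 lower. With the length trend removed, where 69.0% of 759 genes were called by loess and 68.9% by robust loess, Isg15 was called lower, at -1.03 by loess and -1.44 by robust loess. With length and GC content removed together, where 69.3% of 641 genes were called, it was at -1.52. On the log2(TPM + 1) scale it was called lower at -0.76, against a median of -0.60 for all genes.

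**Figure D3:**
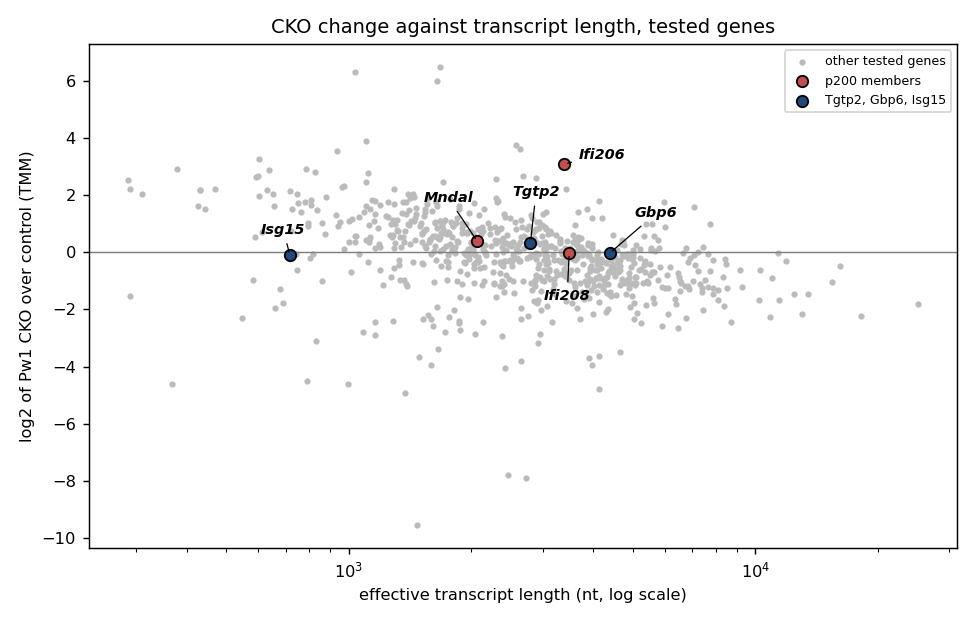
Change of every tested gene with a length (log2 of Pw1 CKO over control, TMM) against the effective transcript length in the controls (nt, log axis), with the 3 p200 members in red and the other 3 members in blue. Ifi206, at 3.09, lies above every gene of like length, and Isg15, at -0.10 and 717 nt, lies below most genes of its length, whose median is 1.45.

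Per length, Isg15 was the most abundant member in both groups and the order of the lowest 2 members changed. Mean TPM was 144 ± 11.2 for Isg15 in CKO 1 to 3 and 240 ± 34.4 in the controls (SD, n = 3 and 6). Mndal had 34.1 ± 6.09 TPM in CKO and 40.5 ± 4.11 TPM in control libraries. Gbp6 had 6.59 ± 0.330 TPM in CKO and 11.3 ± 1.06 TPM in control libraries, and Tgtp2 had 5.97 ± 0.246 TPM in CKO and 9.37 ± 1.79 TPM in control libraries. Gbp6 and Tgtp2 are neighbours in this order whose ranges in the controls overlap. Ifi206 had 5.803 ± 0.987 TPM in CKO and 0.835 ± 0.414 TPM in control libraries, and Ifi208 had 3.21 ± 0.283 TPM in CKO and 4.002 ± 0.399 TPM in control libraries. Ifi206 was thus the lowest of the 6 in the controls. In CKO 1 to 3 it was above Ifi208, and its range of 4.72 to 6.65 TPM took in that of Tgtp2, 5.71 to 6.2 TPM.

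The summed reads of the p200 members against those of Tgtp2, Gbp6 and Isg15 give the contrast of the families within each library. This ratio was 0.561, 0.643 and 0.749 in CKO 1 to 3, 0.533 in CKO 9 and 0.591 in CKO 10, against 0.395, 0.427, 0.420, 0.529, 0.343 and 0.349 in controls 1 to 6. The groups did not overlap in these read ratios, but control 4 came close to CKO 9. From summed TPM they did overlap, with control 4 at 0.256 and CKO 1 at 0.238. The mean read ratio was 0.615 ± 0.0849 in CKO and 0.410 ± 0.0677 in control fibroblasts (SD, n = 5 and 6), a log2 difference of 0.59, and of 0.65 from summed TPM in 9 libraries. Mndal and Isg15 supply most of these reads, no test was made of the sum, and the part of length in it was not tested. With TMM over the 11 libraries the contrast was not one of whole families. Ifi206 was at 3.09 and Mndal at 0.38, while Ifi208, at -0.02, lay among Tgtp2, Gbp6 and Isg15 (0.33, -0.03 and -0.10). This place of Ifi208 depended on CKO 9 and CKO 10. With TMM over the 9 libraries without them, Ifi208 and Mndal were both at 0.40, above Tgtp2, Gbp6 and Isg15 (0.0998, 0.0447 and 0.0348). With the length trend removed by loess both were at 0.41, below Tgtp2 at 0.52 and Gbp6 at 0.71.

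**Figure D4:**
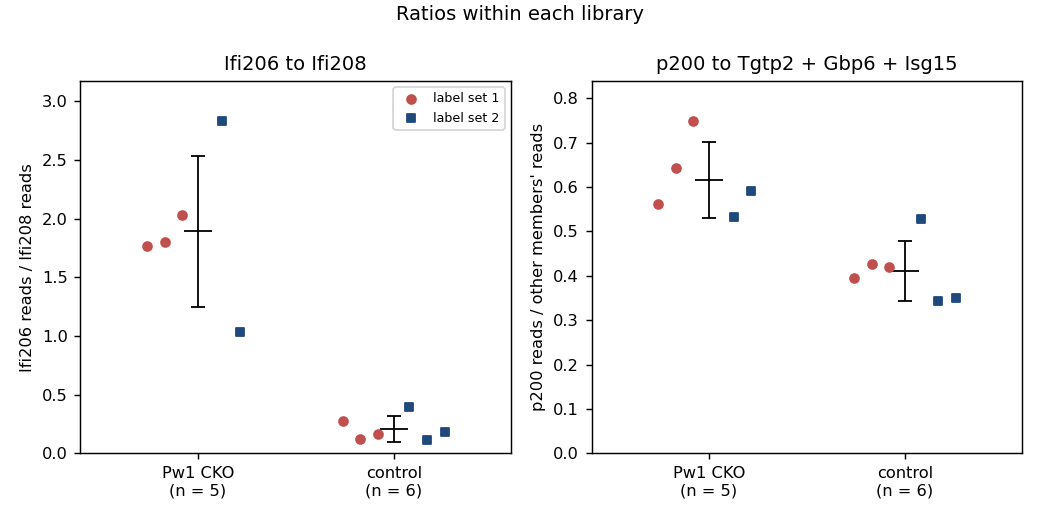
Ratios of reads within each library, Pw1 CKO on the left and control on the right: Ifi206 to Ifi208, and the summed p200 members to the summed Tgtp2, Gbp6 and Isg15. Red circles are label set 1, blue squares label set 2, and the black bar is the mean with the SD (n = 5 and 6). Ifi206 to Ifi208 is 1.04 to 2.83 in the CKO libraries and 0.111 to 0.395 in the controls.

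Near-identical genes can share reads with the members, and 98.5% of the members' counts were not whole numbers (to within 0.005), so reads were divided between genes or transcripts. Of the distinct 50-base stretches of Ifi206 transcripts, 25.6% also occur in another gene (11.1% in Ifi208 and 10.9% in Ifi213). The share was 20.9% for Ifi208 (18.1% in Ifi213) and 19.6% for Mndal. It was 86.6% for Tgtp2 (85.8% in Tgtp1, its near-copy) and 70.7% for Gbp6 (65.0% in Gm43302 and 45.9% in Gbp10), against 3.96% for Isg15. The levels of Tgtp2 and Gbp6 are therefore uncertain as those of single genes, and part of the Ifi206 counts could come from p200 genes not analysed here. Of 14 listed p200 genes in the cluster, from 173349547 to 174031755 on chromosome 1, 3 were held. Between Ifi206 and Ifi208 the annotation places Ifi214, Ifi213 and Ifi209. The effective length was lower in CKO 1 to 3 for Mndal, at 1939 to 1970 nt in CKO 1 to 3 and 2029 to 2130 nt in the controls, and for Gbp6, at 4178 to 4193 nt in CKO 1 to 3 and 4331 to 4450 nt in the controls. Neither pair of ranges overlapped. Those of Tgtp2 met almost end to end, at 2807 to 2813 nt in CKO 1 to 3 and 2784 to 2806 nt in the controls. These lengths were computed from counts and rounded FPKM values, so the gap for Tgtp2 cannot be read as a difference. Ifi208 had the largest shift of the mean, with 3045 to 3332 nt in CKO 1 to 3 and 3087 to 3692 nt in the controls, ranges that overlapped. Isg15 was at 717 to 718 nt in CKO 1 to 3 and 717 nt in the controls.

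A further 4 genes of the interferon lists were held, and all 4 passed the test, 2 higher and 2 lower, where 70.4% of all tested genes passed it, 34.3% higher and 36.1% lower. Gm4070, a very large interferon-inducible GTPase gene (RefSeq synonym VLIG-1), fell by 2.43 (SE 0.19; edgeR adjusted p = 1.21e-06), with 20.96 ± 6.16 CPM in CKO and 109 ± 15.2 CPM in control fibroblasts (SD, n = 5 and 6). Its transcript, at 8739 nt, is long, and its change was -1.40 with robust loess. Tdrd7, a tudor-domain gene induced by interferon in human cells, fell by 1.94 (SE 0.33; edgeR adjusted p = 0.000307), with 20.6 ± 11.6 CPM in CKO and 69.8 ± 4.45 CPM in control fibroblasts. Its CKO libraries ran from 6.55 CPM in CKO 9 to 32.4 CPM in CKO 2. Parp11, an ADP-ribosyltransferase, rose by 0.95 (SE 0.12; edgeR adjusted p = 3.31e-05), with 30.02 ± 7.62 CPM in CKO and 15.6 ± 0.708 CPM in control fibroblasts. Ticam1, the adaptor through which Toll-like receptors 3 and 4 lead to type I interferon, rose by 1.22 (SE 0.10; edgeR adjusted p = 2.29e-06), with 98.2 ± 16.5 CPM in CKO and 42.3 ± 3.08 CPM in control fibroblasts. These 4 kept direction and call in every alternative tried, but not their size. On the log2(TPM + 1) scale Ticam1 was at 0.26 and Parp11 at 0.37. That fit used 9 libraries and left out the CKO libraries of set 2, where both genes were highest. The median of all genes on that scale was -0.60. Relative to it Ticam1 was higher by 0.87 and Parp11 by 0.97. Relative to the median with TMM over all libraries they were higher by 1.28 and 1.01.

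The counts by list are of few genes and stand beside 34.3% higher and 36.1% lower among all tested genes. Of 3 tested p200 genes, 2 were higher and 0 lower. Of 3 interferon GTPases, 0 were higher and 1 lower. Of 3 interferon-stimulated genes (Isg15, Parp11 and Tdrd7), 1 was higher and 1 lower, and the 1 signalling gene was higher. Only 3 of 18 listed p200 genes, 3 of 36 GTPases, 3 of 120 interferon-stimulated genes and 1 of 50 signalling genes were held, which leaves the interferon response as a whole undescribed.

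**Figure D5:**
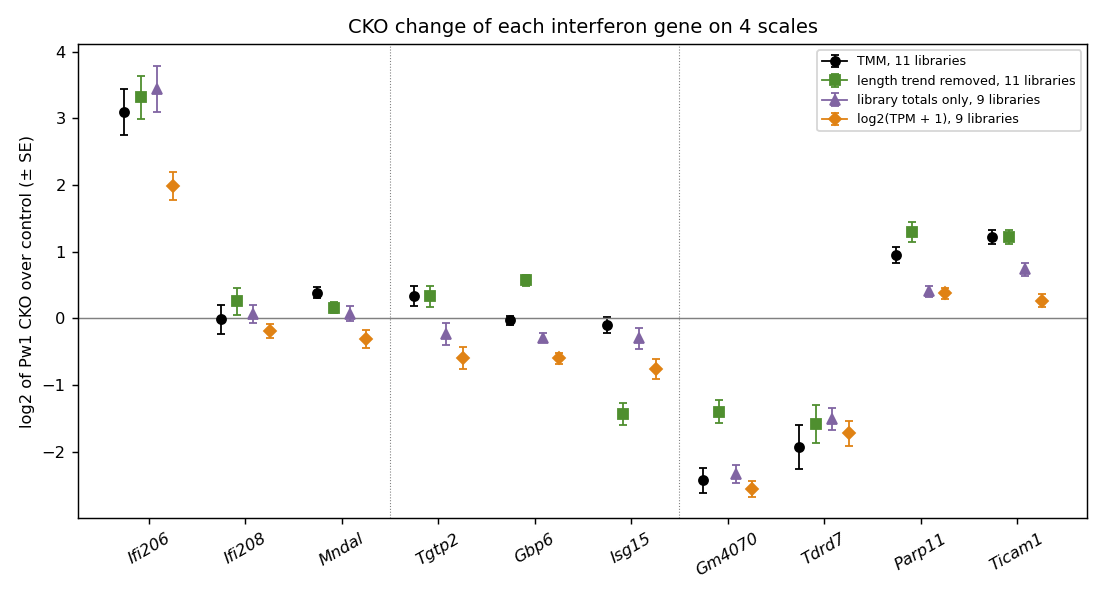
Change of the 6 members and the 4 other interferon genes (log2 of Pw1 CKO over control, with the SE) on 4 scales: TMM over 11 libraries, the length trend removed with a robust loess, library totals only over 9 libraries, and log2(TPM + 1) over 9 libraries. Dotted lines part the p200 members, the other 3 members and the further genes. Ifi206 stays between 1.98 and 3.44 on these scales, Gbp6 lies on both sides of 0, and Isg15 is lowest, at -1.44, with the length trend removed.

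Both label sets gave a higher Ifi206, and its size differed between them. In set 1, where 62.1% of 844 genes were called, and in set 2, where 70.6% were, Ifi206 rose by 3.71 (SE 0.33) and by 2.28 (SE 0.35). The difference, set 2 minus set 1, was -1.43 (SE 0.49; edgeR adjusted p = 0.0406), in a test that called 326 of 844 genes (38.6%), and it was no longer called in 8 of the 11 fits that left out 1 library, at -0.87 (edgeR adjusted p = 0.0952) without control 4. It was also not called with the length trend removed, at -1.27 (edgeR adjusted p = 0.0545). Mndal rose by 0.35 (SE 0.10) in set 1 and by 0.39 (SE 0.11) in set 2. Ifi208 was at 0.35 (SE 0.21; edgeR adjusted p = 0.184) in set 1 and at -0.56 (SE 0.26; edgeR adjusted p = 0.0735) in set 2, and the difference of -0.91 (SE 0.33) had an edgeR adjusted p of 0.0539. Tgtp2 was at 0.05 (SE 0.16; edgeR adjusted p = 0.838) in set 1 and rose by 0.66 (SE 0.18; edgeR adjusted p = 0.00783) in set 2, with an edgeR adjusted p of 0.0738 for the difference. Gbp6 was at -0.01 in set 1 and -0.09 in set 2, and Isg15 was at -0.02 and -0.24, none of them called. Members called were thus 2 of 6 in set 1, 3 of 6 in set 2, and 1 of 6 in the difference.

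The controls of the sets, which the labels word differently, were also compared. Control set 2 against control set 1 called 67 of 844 genes (7.94%) and 0 of the 6 members with edgeR, of which 0 had an unadjusted p under 0.05. Ifi206 was at 0.41 (SE 0.37; edgeR adjusted p = 0.594), mainly through control 4, and at -0.15 without that library. The other 5 members lay between -0.10 for Mndal and 0.18 for Gbp6.

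Markers of other cells were held for 2 lists. Ly6c2, 1 of 12 listed macrophage and monocyte markers, had 78.4 to 221 CPM in CKO libraries and 57.9 to 76.5 CPM in controls, a change of 1.02 (SE 0.21). Of 6 erythroid markers, Hbb-bs had 9.06 to 30.1 CPM in CKO libraries and 1.47 to 3.29 CPM in controls, and Hbb-bt had 0.570 to 1.85 CPM in CKO libraries and 0 to 0.525 CPM in controls. The direction of Ly6c2 depended on the scale and on the libraries used. With robust loess over all 11 libraries it was at -0.25 (edgeR adjusted p = 0.0752). Over the 9 libraries without CKO 9 and CKO 10 it was at 0.17 with library totals (edgeR adjusted p = 0.241). In the same 9 libraries it was called lower, at -0.29, with log2(TPM + 1). CKO 9 and CKO 10 had the highest Ly6c2, at 221 and 210 CPM. Hbb-bs was called higher on each of these scales, from 0.97 to 1.48, and Hbb-bt, called at 2.65 with TMM, was not called with library totals or robust loess. With TMM, the Ly6c2 change was 0.46 in set 1 and 1.66 in set 2, and that of Hbb-bs was 1.76 and 3.72. Both differed between the sets (edgeR adjusted p = 0.0015 for Ly6c2 and 0.000821 for Hbb-bs), in a test that called 38.6% of 844 genes. The Hbb-bt change was 2.26 in set 1 and 3.07 in set 2, and its difference between the sets was not called (edgeR adjusted p = 0.637). The defining macrophage, neutrophil, dendritic, lymphocyte, endothelial, cardiomyocyte and platelet markers on the lists were not analysed here, and the part of such cells in the members' values was not tested.

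Across the 11 libraries, log2 CPM of Ifi206 and Mndal went together (Pearson r = 0.875) and that of Ifi206 and Ifi208 did not (r = 0.0484). These values describe libraries that share a group difference, and carry no test. Of 594 candidate genes with ordinary names, those most like Ifi206 over the 11 libraries were Rita1 (r = 0.959), Mapkapk3 (0.955) and the transporter gene Slco2b1 (0.95005). Slco2b1 was also the most like Mndal (0.934), and Sap18b was among the 3 most like it (0.889). Ifi208 was most like the Mediator subunit gene Med21 (0.922), Trim68 (0.853) and E2f4 (0.834). Tgtp2 was most like Rdh1 (0.928), Tpbgl (0.846) and Eif2b3 (0.796). Gbp6 was most like Zfp120 (0.793), Mbnl2 (0.740) and Ap1s2 (0.735), and Isg15 most like Eif3j2 (0.777), Med21 (0.687) and Xrcc4 (0.641).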

How the data were processed

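The deposited table gives TPM, FPKM and counts in 33 columns, per the file headers, of which 29 were used. TPM and FPKM were used only for the 9 libraries whose columns match a single sample, so 4 columns of CKO 9 and CKO 10 were not used, while their counts entered as CKO libraries. The submitters' processing notes name Bowtie2, RSEM, DESeq2 and GRCm38, with no versions or settings. The authors' counts are expected counts, which need not be whole, and were rounded here. The authors' TPM values are relative to all transcripts in a library, and the deposited FPKM values to fragments and length. Only part of the table was held: 1293 complete genes, of which the 152 with any blank library were not tested.

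The 2-sided test was edgeR's quasi-likelihood F test (edgeR 4.0.16, R 4.3.3), with TMM scaling, the filterByExpr filter and terms for group and label set, run over all genes tested, and set effects came from 1 mean for each group in each set. The standard error is the one implied by the F statistic. Library totals came from counts, FPKM and single-transcript lengths (38 genes of FPKM of at least 5; control 1 at 20482238 reads, 95% interval 19118206 to 21009996), and those of CKO 9 and CKO 10 from the mean share of reads held in CKO 1 to 3. Alternatives were DESeq2 1.42.0, limma-voom and limma 3.58.1 on log2(TPM + 1) or log2(TPM + 0.1) (TPM of at least 1 in 3 of 9 libraries), other filters, no set term, each set alone, recovered totals, loess offsets for length or length and GC (span 0.5) and each library left out. TMM over 9 libraries, a robust loess and the ratio settings were chosen after seeing the data. The fit was tested on simulated data. No pairing of the libraries by replicate number was seen in set 1. Gene positions and promoters came from RefSeq GRCm38.p6 (1275 gene IDs found), and transcript sequences for GC content and shared stretches from GENCODE M21 (955 gene IDs found). Named genes were the 6 members, every other held gene of the interferon lists and the 3 genes most correlated with each member, of which 1 is not reported here. The members, lists and tests were chosen with earlier results of these data known.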

Additional observations from a re-analysis of the deposited data

Results flagged for a closer look

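The CKO change differed between the label sets, by a test of the difference itself, for 5 of the 10 interferon genes, in a test that called 38.6% of all 844 genes. Set 2 minus set 1 was -1.43 for Ifi206 (edgeR adjusted p = 0.0406), -0.92 for Gm4070 (edgeR adjusted p = 0.00679), -1.75 for Tdrd7 (edgeR adjusted p = 0.00195), 0.55 for Parp11 (edgeR adjusted p = 0.0168) and 0.43 for Ticam1 (edgeR adjusted p = 0.0357). The difference for Ifi206 was lost in 8 of 11 fits that left out 1 library and with the length trend removed (-1.27; edgeR adjusted p = 0.0545). The change was larger in size in set 2 for Gm4070, Tdrd7, Parp11 and Ticam1 and smaller in set 2 for Ifi206. CKO 9 and CKO 10, the CKO libraries of set 2, were placed there by elimination, and the way their columns entered the table cannot be told apart from the set. No library was flagged as far from the others of its group in the 20 groups looked at, which does not mean that the libraries were alike. Ifi208 in CKO 9 (2.51 CPM) and Isg15 in control 4 (48.7 CPM) were the lowest of their groups. Ifi206 in control 4 (2.13 CPM) was the highest of its group.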

How the results depend on the processing

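Ifi206 kept its direction and call in all alternatives, and so did Gm4070, Tdrd7, Parp11 and Ticam1. Members called were 2 with TMM (70.4% of all genes), 4 with log2(TPM + 1) (79.0%) and with log2(TPM + 0.1) (78.4%), 5 with the length trend removed (69.0%) and 6 with length and GC removed (69.3%), and 2 to 3 with 1 library left out. The TPM settings change the scale, the method and the libraries (9 in place of 11) at once. With recovered totals, Mndal was at 0.0705, no longer called, and Gbp6 was called at -0.29. With log2(TPM + 1) and log2(TPM + 0.1), Mndal was at -0.31 and -0.32, Tgtp2 at -0.59 and -0.66, Gbp6 at -0.60 and -0.67 and Isg15 at -0.76 and -0.76, where the median of all genes was -0.60 with log2(TPM + 1). With length removed, Tgtp2 was at 0.52, Gbp6 at 0.71 and Isg15 at -1.03, where the median of all genes was 0.18. With length and GC removed, Ifi208 was at 0.51, Mndal at 0.99, Tgtp2 at 0.59, Gbp6 at 0.70 and Isg15 at -1.52. With robust loess, Mndal was at 0.16, Gbp6 at 0.57 and Isg15 at -1.44. TMM over 9 libraries put Ifi208 at 0.40, and set 2 alone put Tgtp2 at 0.67. The cause of these shifts was not tested. With 1 library left out, Tgtp2 ranged from 0.25 to 0.41, genes called from 535 to 575, and members with a set difference from 0 to 2. In set 1, no pairing by replicate number was seen (same-number correlations 0.0231, 0.0157 and 0.136, and not every library correlated best with its own number). So few libraries cannot exclude a pairing. The replicate block gave 3.74 for Ifi206, against 3.71 without it, and changed no member's call. Depth limits Ifi206 in the controls, at 14.99 to 48.8 reads.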
